A study of Mus musculus with 3 samples.

Results

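The Apoa4-high villus enterocytes of the mouse small intestine were 2144 cell barcodes out of 39227 that passed the quality limits and 42055 in the deposited libraries. A barcode was kept when it held at least 500 detected genes and at most 20% mitochondrial transcripts. It was counted as an Apoa4-high enterocyte when *Fabp1* made up at least 0.4% of its unique molecular identifiers (UMIs, 1 per captured RNA molecule) and *Apoa4* plus *Apoc3* together at least 0.5%. *Fabp6* had to stay under 1%, *Tff3* under 2% and *Defa24* under 5%, limits that keep out ileal enterocytes, goblet cells and Paneth cells. The choice of cells therefore used the measured levels of these 6 genes, and their values describe the cells without testing anything.

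The libraries came from EpCAM-positive epithelial cells sorted from the whole small intestine of 3 genotypes on the C57BL/6 background, with 1 mouse and 1 library each. WT was the wild type. *LApc* was *Lgr5-CreERT2;Apc fl/fl*, in which Cre expressed from the stem cell locus *Lgr5* removes the tumor suppressor *Apc* after tamoxifen. *LApcL* had the same alleles and *Lef1 fl/fl* in addition, so that the Wnt transcription factor *Lef1* is removed as well. Whether the Apoa4-high enterocytes descend from stem cells that lost these genes was not tested. Below, a mutant library means the library of a mouse with these alleles, not cells known to lack the genes. Per the labels, all 3 mice had been given 2 doses of 2 mg tamoxifen at 7 to 8 weeks of age. WT and *LApcL* were examined on day 21 and *LApc* on day 29. The authors give days 29 and 21 as the points at which mice met their criteria for euthanasia. Genotype, mouse, library and, for *LApc*, day cannot be told apart, and no difference between libraries has a replicate check.

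Absorptive enterocytes are born in the crypts and mature as they move up the villus, where they digest and take up nutrients across the brush border. They package dietary fat with apolipoproteins into chylomicrons, which leave through the basolateral side. Toward the villus tip they are known to change their program from antimicrobial defense to nutrient uptake and then to purine handling, and in the proximal intestine they take up iron.

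The label was checked against its 5 markers. Levels are given in CPM, the UMIs of a gene per 1000000 UMIs of the cells, and unless stated otherwise in the order WT, *LApc*, *LApcL*. *Apoa4* and *Apoc3* were part of the rule. Lactase (*Lct*), the enzyme that splits milk sugar, stood at 1064, 778 and 851 CPM. The peptidase *Ace* stood at 723, 711 and 723 CPM. In goblet cells of the same libraries, taken as barcodes with *Tff3* at 2% or more and *Fabp1* under 0.4%, *Lct* was at 16.0 to 28.8 CPM and *Ace* at 17.1 to 28.7 CPM. Both markers were thus far above their level in goblet cells. The *Fabp1* limit keeps goblet cells with much enterocyte RNA out of that set, and the part of free RNA was not tested. *Ada*, which encodes the purine enzyme adenosine deaminase, stood at 58.2 CPM in WT, little above the 48.8 CPM of goblet cells. Whether goblet cells make this transcript themselves was not tested. Apoa4-low enterocytes of WT, which met the same rule but lay under its *Apoa4* plus *Apoc3* limit, held *Ada* at 22.6 CPM. In WT, *Ada* was thus higher than in Apoa4-low enterocytes but hardly set the cells apart from goblet cells. It reached 422 CPM in *LApc* and 1106 CPM in *LApcL*.

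The libraries held 79696291 to 191509615 UMIs. Apoa4-high enterocytes of WT had the deepest profiles, with a median of 8446 UMIs per cell against 4853 in *LApc* and 6547 in *LApcL*, and medians of 2354, 1637 and 2064 genes. When each cell was thinned to 3000 UMIs, the medians were 1212, 1193 and 1236 genes. The median mitochondrial share was 9.22%, 10.9% and 9.11%. *Lef1* was not a measure of the genotype in these cells, with 1 UMI in WT, 1 in *LApc* and 2 in *LApcL*. *Apc* stood at 17.8, 17.0 and 20.2 CPM, but reads at the 3′ end of the transcript do not report the deletion of inner exons. *Epcam*, the sorting marker, was present at 1456, 1477 and 1953 CPM. The libraries shared 214 to 318 barcode sequences in pairs, and no shared barcode was an Apoa4-high enterocyte in both libraries of a pair.

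The share of these cells differed between the libraries. They were 509 of 11391 kept barcodes in WT, or 4.47% (95% exact Clopper-Pearson interval 4.10 to 4.86), 1344 of 10864 in *LApc*, or 12.4% (11.8 to 13), and 291 of 16972 in *LApcL*, or 1.71% (1.52 to 1.92). Here and below, intervals cover counting error only and not the spread between mice. *LApc* was highest and *LApcL* lowest, and the intervals did not overlap. Depth moved with this share. *LApc* held 4995 barcodes under 6000 UMIs, of which 966 were Apoa4-high enterocytes, whereas WT held 130 such barcodes, of which 13 were. Among barcodes with 6000 UMIs or more, 4.40% of WT, 6.44% of *LApc* and 1.26% of *LApcL* were such cells, the same order with *LApc* closer to WT. As a share of the Apoa4-high, Apoa4-low and Fabp6-high enterocytes together, they were 27.2%, 47.0% and 30.5%, so the low share of *LApcL* among all barcodes went with few enterocytes of any of these sets. The sort and the dissociation can set such shares, and their part was not tested.

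**Figure D1:**
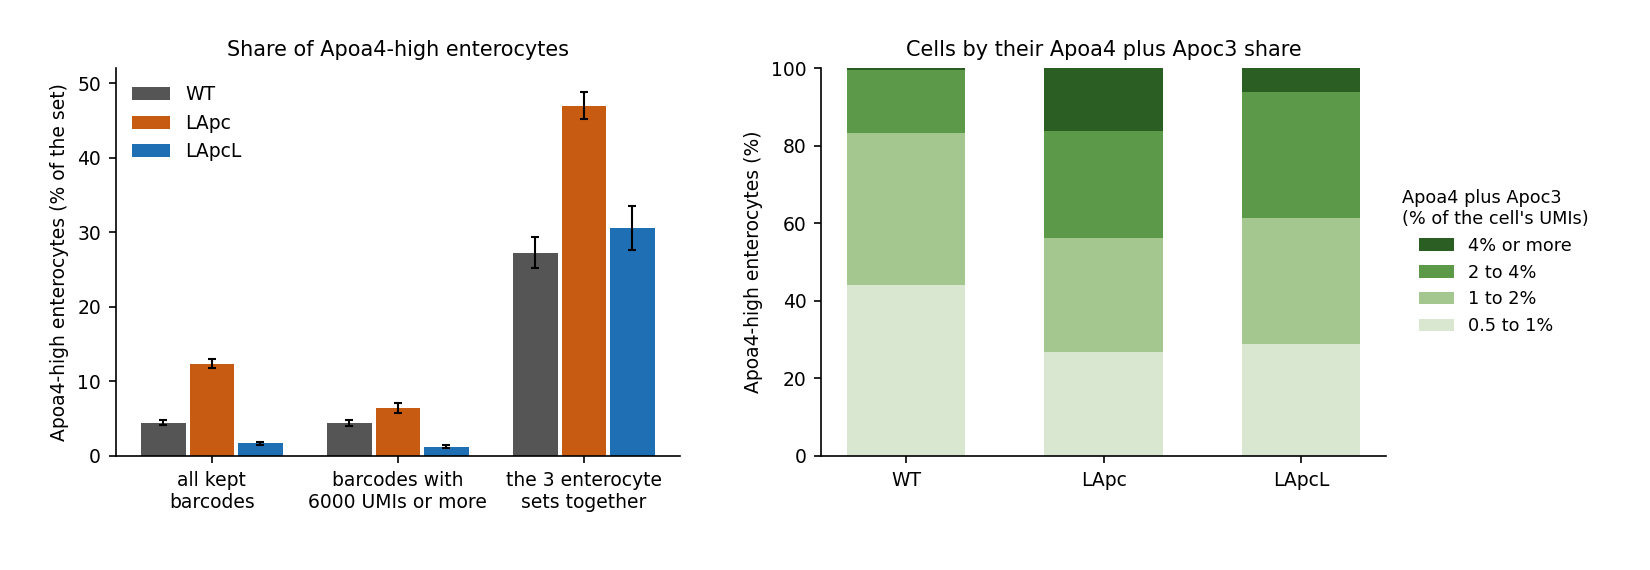
The left plot gives Apoa4-high enterocytes as a percent of all kept barcodes, of the barcodes with 6000 UMIs or more, and of the 3 enterocyte sets together (Apoa4-high, Apoa4-low and Fabp6-high), by library, with 95% exact intervals of counting error. The right plot gives the percent of the Apoa4-high enterocytes in each range of their Apoa4 plus Apoc3 share. *LApc* has the highest share at 12.4%, and 16.1% of its cells lie in the top range against 0.393% in WT.

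Within the set, the *Apoa4* plus *Apoc3* share had a median of 1.07% of a cell's UMIs in WT, 1.80% in *LApc* and 1.62% in *LApcL*. *Apoa4* summed over the cells stood at 8136, 15749 and 13704 CPM and *Apoc3*, which slows the clearance of triglyceride-rich particles, at 4114, 5120 and 3575 CPM. *Fabp1*, which binds fatty acids, stood at 23791, 23911 and 13956 CPM. Cells at 4% or more numbered 2, 217 and 18. The limit of 0.5% cut through a continuum. In WT, 57 cells lay just inside it, at 0.5 to 0.6%, and 51 just outside, at 0.4 to 0.5%, with *Apoa1* at 16995 and 14387 CPM and *Lct* at 580 and 600 CPM. In *LApc* the numbers were 90 and 111 cells, with *Apoa1* at 14730 and 11544 CPM, and in *LApcL* 24 and 23 cells, with *Apoa1* at 19008 and 16219 CPM.

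The libraries were next compared gene by gene on the UMIs summed over the Apoa4-high enterocytes. With 1 library per genotype no test was possible, and a gene was counted as apart when its CPM differed 2-fold or more. In such sums, fewer cells with a transcript and less transcript per cell cannot be told apart. Of 2422 genes at 50 CPM or more in the mean of the libraries, 93 (3.84%) were 2-fold apart between *LApc* and WT, 56 higher in *LApc* (2.31%) and 37 lower (1.53%). Between *LApcL* and WT, 165 were apart (6.81%), 77 higher in *LApcL* (3.18%) and 88 lower (3.63%). Between *LApcL* and *LApc*, 90 were apart (3.72%), 37 higher in *LApcL* (1.53%) and 53 lower (2.19%). The 3 comparisons share libraries and are not independent. Scaling by trimmed mean of M values (TMM) moved the *LApcL* splits to 53 higher and 109 lower against WT, and to 22 and 72 against *LApc*. It shifted the median log2 ratio of all genes from 0.04 to -0.12 and from 0.08 to -0.08, and was near neutral for *LApc* over WT.

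Most genes of fat absorption and digestion were not 2-fold apart, as was so for most genes of any kind. None of the 9 genes of chylomicron assembly at 50 CPM (11 on the list), the 10 genes of fatty acid uptake and triglyceride synthesis, the 4 disaccharidases or the 12 genes of microvillus structure was 2-fold apart in any comparison. At most 6.81% of all genes were apart in either direction, so nothing particular to these lists is read from the counts. *Apoa1*, the main apolipoprotein of high-density lipoprotein, stood at 23805 CPM in WT, 22162 in *LApc* and 33147 in *LApcL*. *Apob*, the structural protein of the chylomicron, stood at 1105, 1430 and 1804 CPM, and *Mttp*, which loads lipid onto it, at 1314, 1373 and 1054 CPM. *Fabp2*, which carries fatty acids in the cytosol, was at 25926, 23420 and 20536 CPM. The chylomicron list had a median log2 ratio of 0.06 for *LApc* over WT and -0.16 for *LApcL* over WT, beside -0.04 and 0.04 for all 2422 genes. In these lists, the nearest to an exception was the fatty acid transporter *Cd36*, at 52.3, 104 and 73.9 CPM. It was past 2-fold for *LApc* over WT under 6 of 16 other settings.

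Among the brush border enzymes, sucrase-isomaltase (*Sis*) stood at 1615, 1523 and 949 CPM and maltase-glucoamylase (*Mgam*) at 1104, 1133 and 1239 CPM. Of 11 brush border peptidases, 1 was 2-fold apart: *Xpnpep2*, which cleaves peptides with proline at the second position, at 81.5, 50.6 and 109 CPM, was higher in *LApcL* than in *LApc* (log2 ratio 1.11). Aminopeptidase N (*Anpep*) stood at 1758, 1473 and 1891 CPM. Villin (*Vil1*), which bundles the actin of the microvilli, stood at 1104, 967 and 1038 CPM.

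**Figure D2:**
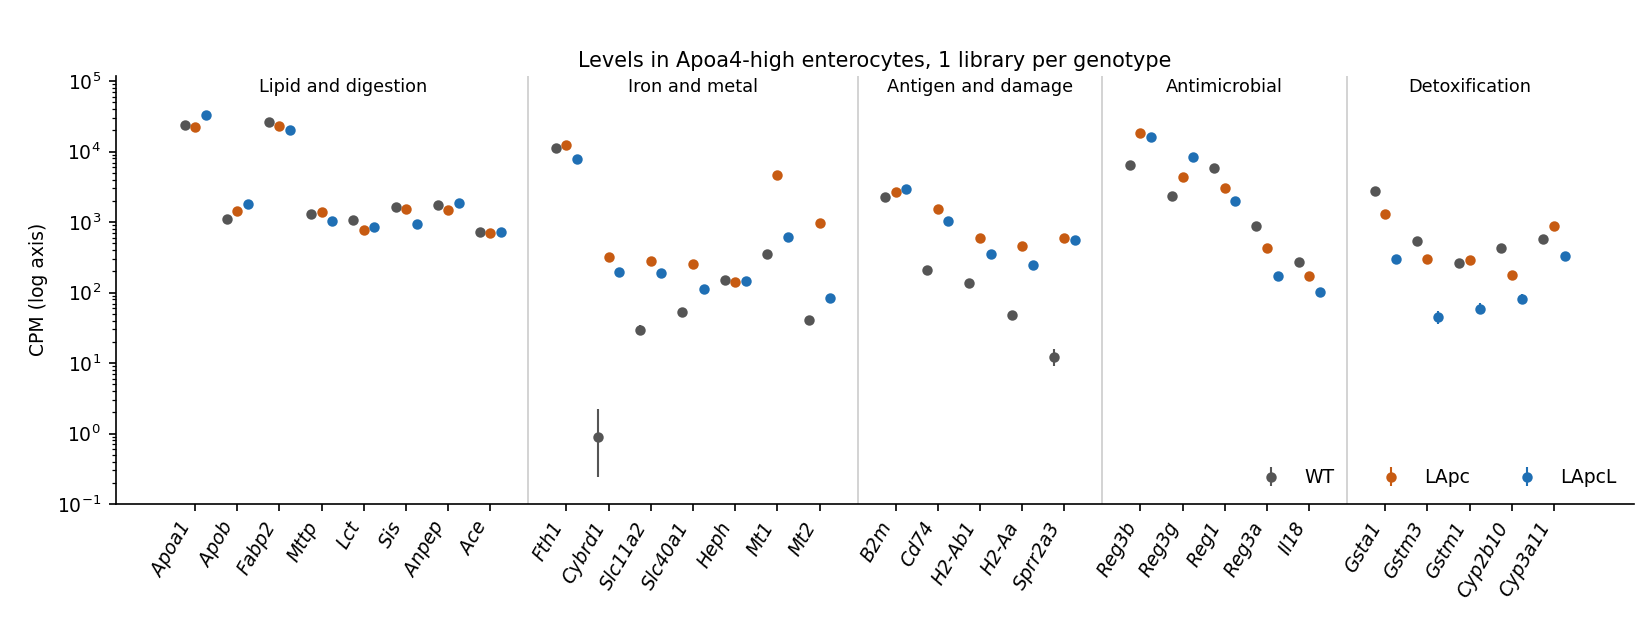
Levels of lipid, digestion, iron, antigen, antimicrobial and detoxification genes in Apoa4-high enterocytes, in CPM on a log axis, by library (1 each), with 95% exact Poisson intervals, which are mostly smaller than the points. The lipid and digestion genes lie close together, whereas *Cybrd1* is at 0.879 CPM in WT against 325 in *LApc* and 194 in *LApcL*.

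Genes of iron transport stood far apart between WT and the mutant libraries. *Cybrd1* (chr2:71117923-71142926, plus strand, mm10), the ferric reductase of the duodenal brush border, had 4 UMIs in WT, 2230 in *LApc* and 413 in *LApcL*, or 0.879 CPM (exact Poisson interval 0.239 to 2.25), 325 CPM (312 to 339) and 194 CPM (176 to 214). Its log2 ratio was 8.53 for *LApc* over WT (exact conditional interval 7.17 to 10.41) and 7.79 for *LApcL* over WT (6.42 to 9.67). *Cybrd1* was low throughout the WT library, at 1.08 CPM over all kept barcodes against 43.6 in *LApc* and 27.8 in *LApcL*. Goblet cells held 0.524, 11.9 and 12.1 CPM.

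The other steps of iron transport differed less. *Slc11a2* (chr15:100387898-100425072, minus strand), which imports ferrous iron from the lumen, stood at 29.4 CPM in WT, 285 in *LApc* and 190 in *LApcL*. *Slc40a1* (chr1:45908068-45926523, minus strand), which exports iron to the blood, stood at 52.3, 251 and 113 CPM. Both were highest in *LApc* and lowest in WT. The ferroxidase *Heph*, which acts with the exporter, stood at 151, 140 and 145 CPM, and the ferritin chains *Fth1* at 11086, 12361 and 7846 CPM and *Ftl1* at 2735, 3164 and 2575 CPM. Of 6 iron genes at 50 CPM (8 on the list), 3 were 2-fold higher in each mutant library than in WT and none was lower. Over all 2422 genes, 2.31% were 2-fold higher in *LApc* than in WT and 3.18% in *LApcL*. For *LApcL* the call of *Slc40a1*, with a log2 ratio of 1.12, was the weakest, at 0.96 under TMM scaling, 0.83 in barcodes with 6000 UMIs or more and -0.66 in cells without a *Cybrd1* UMI, and it was past 2-fold under 11 of 16 other settings. The median log2 ratio of the list was 1.24 for *LApc* over WT and 0.53 for *LApcL* over WT. Heme oxygenase (*Hmox1*), which frees iron from heme, was below 50 CPM in the mean, at 0.220 (1 UMI), 92.4 and 3.77 CPM.

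The *Cybrd1* signal came from a minority of the cells. After thinning to 3000 UMIs, which left out 0, 171 and 2 shallower cells, a *Cybrd1* UMI was found in 2 of 509 cells of WT, 220 of 1173 of *LApc* (18.8%, 16.6 to 21.1) and 34 of 289 of *LApcL* (11.8%, 8.29 to 16.0). The shares before thinning were 0.786%, 22.3% and 16.2%. Goblet cells, which should lack the transcript, held one in 0.0829%, 2.48% and 2.29% of thinned cells. Before thinning, at median depths of 9041, 5452 and 7002 UMIs, the goblet cell shares were 0.414%, 3.93% and 5.94%. The shares in both mutant libraries were therefore above those of goblet cells, before and after thinning. In WT, 2 cells are too few to describe.

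Cells with and without a *Cybrd1* UMI were set side by side within each mutant library as a description. In *LApc*, cells with the UMI held *Slc40a1* at 1024 CPM against 88.8 without, *Slc11a2* at 839 against 178 and *Fth1* at 26626 against 9544. In *LApcL*, the pairs were 814 and 49.7 for *Slc40a1*, 1245 and 81.0 for *Slc11a2* and 21549 and 6108 for *Fth1*. Importer, exporter and ferritin transcripts were thus higher in the cells chosen by the reductase, in both libraries. Transcription factors of the proximal intestine were higher there too. *Onecut2* stood at 183 against 92.3 CPM in *LApc* and 353 against 127 in *LApcL*. *Gata4* stood at 53.0 against 34.6 and 127 against 41.8 CPM, and its intervals overlapped in *LApc*, 36.9 to 73.8 and 28.1 to 42.2 CPM. The part of these factors was not tested. *Mt1*, a metal-binding metallothionein, was also higher in these cells, at 12665 against 3319 CPM in *LApc* and 1471 against 393 in *LApcL*. *Heph* differed little, at 179 against 134 and 216 against 158 CPM.

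Other genes took the opposite direction. The antimicrobial lectin *Reg3b* stood at 6861 CPM in cells with a *Cybrd1* UMI and 19929 without in *LApc*, and at 4441 and 15984 in *LApcL*. *Lct*, also listed as a gene of the proximal intestine, stood at 518 and 916 CPM in *LApc* and at 245 and 1073 in *LApcL*. *Rbp2*, a retinol carrier, stood at 10118 and 17163 and at 10804 and 14339 CPM. *Ada* differed between the libraries in this respect, with 361 and 380 CPM in *LApc* but 4637 and 749 in *LApcL*. In cells without the UMI, *Slc11a2* still stood at 178 and 81.0 CPM (*LApc*, *LApcL*), above the 29.6 CPM of WT, whereas *Slc40a1* stood at 88.8 and 49.7 CPM beside 60.5 CPM.

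**Figure D3:**
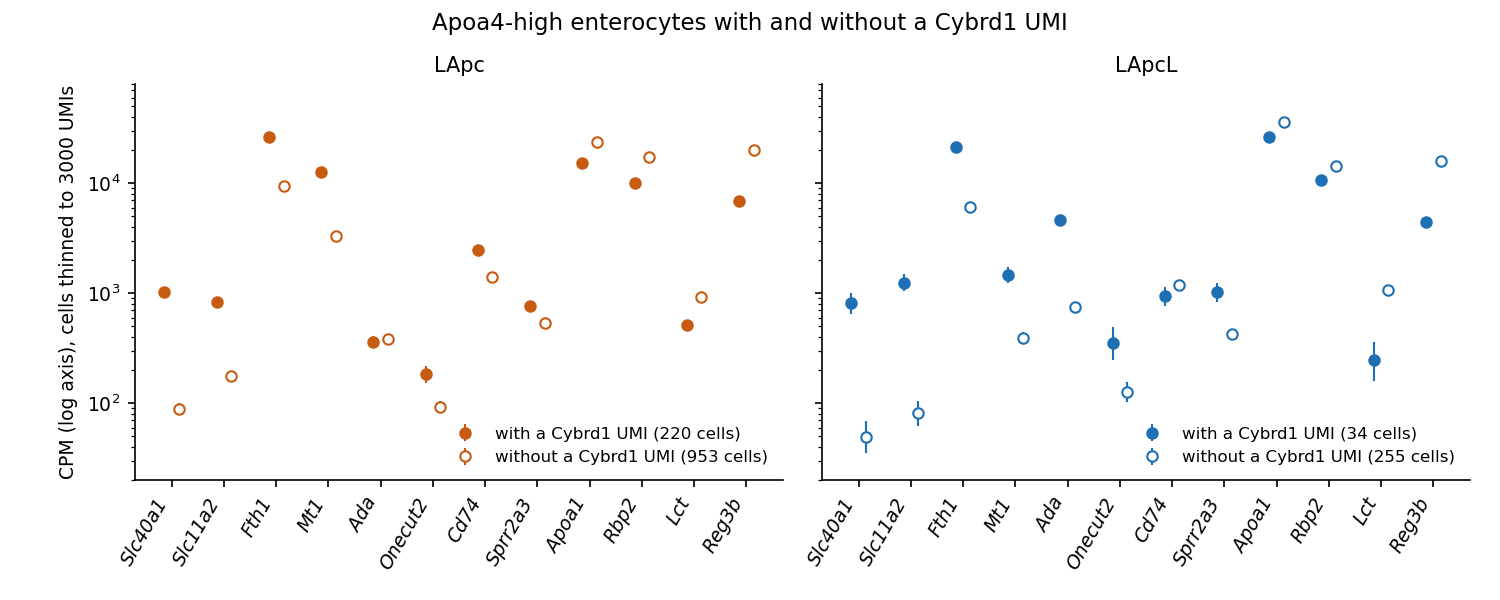
Levels of 12 genes in Apoa4-high enterocytes with (filled) and without (open) a *Cybrd1* UMI, in CPM on a log axis after each cell was thinned to 3000 UMIs, for *LApc* (220 and 953 cells) and *LApcL* (34 and 255 cells), with 95% exact Poisson intervals. *Slc40a1*, *Slc11a2*, *Fth1* and *Mt1* are higher with the UMI in both libraries, and *Lct*, *Rbp2* and *Reg3b* are lower.

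Metallothioneins, small proteins that bind zinc and copper, stood highest in *LApc*. *Mt1* (chr8:94179082-94180327, plus strand) stood at 354 CPM in WT, 4680 in *LApc* and 621 in *LApcL*, and *Mt2* (chr8:94172664-94173568, plus strand) at 40.6, 961 and 82.8 CPM. The log2 ratios were 3.73 and 4.56 for *LApc* over WT, 0.81 and 1.03 for *LApcL* over WT and -2.91 and -3.54 for *LApcL* over *LApc*. *Mt1* was detected in 91.2% of thinned *LApc* cells, against 47.5% in WT and 52.9% in *LApcL*, so that in *LApc*, unlike *Cybrd1*, it was found in most cells. Goblet cells of *LApc* held it at 483 CPM. The zinc importer *Slc39a4* stood at 132, 125 and 140 CPM. Of the list, 3 of 4 genes were at 50 CPM, and 2 were 2-fold higher in *LApc* than in WT, beside 2.31% of all genes.

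Transcripts commonly raised in low oxygen differed from gene to gene. *Ndrg1* stood at 48.8 CPM in WT, 170 in *LApc* and 109 in *LApcL*, and *Egln3*, a prolyl hydroxylase that marks hypoxia-inducible factors for decay, at 30.8, 84.4 and 69.7 CPM. Lactate dehydrogenase (*Ldha*) was at 1521, 1690 and 1416 CPM. Of 3 such genes at 50 CPM (9 on the list), 2 were 2-fold higher in each mutant library than in WT. Among all genes, 2.31% were so in *LApc* and 3.18% in *LApcL*. Below 50 CPM in the mean, *Ankrd37* stood at 6.15, 74.8 and 60.7 CPM and the mitophagy receptor *Bnip3* at 13.6, 53.6 and 26.4 CPM. *Ndrg1* was higher in goblet cells, at 113, 234 and 146 CPM, and its level was at or below theirs in every library. The part of free RNA in the *Ndrg1* level of the Apoa4-high cells was not tested. *Egln3* was at 1.13 to 10.9 CPM in goblet cells. *Ankrd37* was at 4.17, 24.96 and 16.1 CPM there, and its interval in WT, 4.09 to 8.89 CPM, included the goblet cell level.

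Promoter windows of 300 bases, from 250 before to 50 after the annotated start, are shown for the metallothionein pair and for *Cybrd1* and *Ankrd37*, whose levels set the mutant libraries apart from WT. They were taken from RefSeq on GRCm38.p6, where 8 of 11 symbols looked up had an entry, and *Ndrg1*, *Slc11a2* and *Slc40a1* were not among these. Capitals mark the metal response element in *Mt1* (chr8:94178839-94179138, plus strand) and *Mt2* (chr8:94172368-94172667, plus strand), searched as TGCACNC or TGCGCNC on both strands. In *Cybrd1* (chr2:71117804-71118103, plus strand) and *Ankrd37* (chr8:45999801-46000100, minus strand) they mark the core of the hypoxia response element, searched as ACGTG or GCGTG on both strands.
Mt1: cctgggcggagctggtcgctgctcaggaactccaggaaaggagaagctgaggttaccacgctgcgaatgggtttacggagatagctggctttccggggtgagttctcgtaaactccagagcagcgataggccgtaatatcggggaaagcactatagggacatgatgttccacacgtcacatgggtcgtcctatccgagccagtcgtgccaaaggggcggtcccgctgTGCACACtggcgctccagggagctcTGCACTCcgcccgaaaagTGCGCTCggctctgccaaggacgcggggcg
Mt2: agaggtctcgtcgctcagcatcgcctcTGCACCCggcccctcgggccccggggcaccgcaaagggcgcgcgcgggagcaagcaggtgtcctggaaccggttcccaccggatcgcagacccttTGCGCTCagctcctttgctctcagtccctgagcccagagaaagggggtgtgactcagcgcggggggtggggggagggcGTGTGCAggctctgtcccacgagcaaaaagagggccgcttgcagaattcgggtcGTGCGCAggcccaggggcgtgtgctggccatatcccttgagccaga
Cybrd1: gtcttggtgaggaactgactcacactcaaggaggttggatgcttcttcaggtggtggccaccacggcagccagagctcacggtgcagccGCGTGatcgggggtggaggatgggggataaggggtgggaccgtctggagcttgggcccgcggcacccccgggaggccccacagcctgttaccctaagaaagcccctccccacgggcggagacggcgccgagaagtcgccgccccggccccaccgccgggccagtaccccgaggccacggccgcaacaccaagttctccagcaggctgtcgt
Ankrd37: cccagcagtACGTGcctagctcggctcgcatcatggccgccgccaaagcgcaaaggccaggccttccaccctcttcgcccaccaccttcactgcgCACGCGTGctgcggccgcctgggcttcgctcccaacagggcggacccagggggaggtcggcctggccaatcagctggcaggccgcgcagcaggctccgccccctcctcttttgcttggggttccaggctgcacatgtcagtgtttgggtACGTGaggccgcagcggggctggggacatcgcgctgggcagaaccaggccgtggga

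The *Mt1* window held 3 matches to the metal response element and the *Mt2* window 4. At least 1 match was present in 25.7% of 32841 promoter windows of this length. The *Cybrd1* window held 1 match to the hypoxia core and the *Ankrd37* window 4, of which 2 overlapped, and 43.8% of windows held at least 1. Matches to the other motif are not marked. The *Mt1* and *Mt2* windows held 2 matches each to the hypoxia core. The *Ankrd37* window held 1 match to the metal response element and the *Cybrd1* window 0. These are matches of letters, and binding was not measured.

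Major histocompatibility complex (MHC) class II shows extracellular peptides to helper T cells. In Apoa4-high enterocytes, transcripts of class II were higher in both mutant libraries than in WT. Its invariant chain *Cd74* stood at 208 CPM in WT, 1525 in *LApc* and 1050 in *LApcL*. *H2-Aa* (chr17:34282744-34287823, minus strand) stood at 48.8, 459 and 249 CPM, *H2-Ab1* at 135, 603 and 357 CPM and *H2-Eb1* at 58.2, 283 and 170 CPM. All 4 class II genes at 50 CPM (7 on the list) were 2-fold higher in *LApc* and in *LApcL* than in WT, with median log2 ratios of 2.58 and 1.94. Among all genes, 2.31% and 3.18% were so. The 4 class II genes were lower in *LApcL* than in *LApc*, by less than 2-fold. Over all kept barcodes the 7 listed genes did not follow this order, with sums of 853, 1303 and 354 CPM. In goblet cells they summed to 805, 490 and 463 CPM. With equal weight for 4 ranges of the *Apoa4* plus *Apoc3* share, the top one of which holds 2 cells of WT, *H2-Ab1* and *H2-Eb1* for *LApcL* over WT were at log2 0.04 and 0.55. *Cd74* was found in 83.4% of thinned cells of *LApc* and 56.1% of *LApcL*, against 32.3% and 26.2% of goblet cells. In WT it was found in 29.3% of cells, 39.4% of goblet cells and 15.7% of Apoa4-low enterocytes. The WT share was thus below that of goblet cells and above that of Apoa4-low enterocytes, and the part of free RNA was not tested.

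The WT library did hold enterocytes with class II transcripts, since its Fabp6-high enterocytes had *Cd74* at 2552 CPM, beside 2093 in *LApc* and 2910 in *LApcL*. The Apoa4-low enterocytes had 91.7, 492 and 235 CPM. Immune cells also make these transcripts. The 10 immune markers summed to 5.27 CPM in the Apoa4-high cells of WT, 43.1 in *LApc* and 3.29 in *LApcL*. Of these markers, 6 were at 0 in WT, none in *LApc* and 6 in *LApcL*, and their part in the class II levels was not tested. For MHC class I, beta-2-microglobulin (*B2m*) stood at 2267, 2660 and 2948 CPM. The median log2 ratios of 5 class I genes were 0.23 for *LApc* over WT and 0.30 for *LApcL* over WT. None was 2-fold apart, beside at most 6.81% of all genes, so nothing is read from this count. Of 4 interferon response genes, *Irf7* was 2-fold higher in *LApcL* than in WT, at 52.5, 97.8 and 116 CPM, beside 3.18% of all genes.

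**Figure D4:**
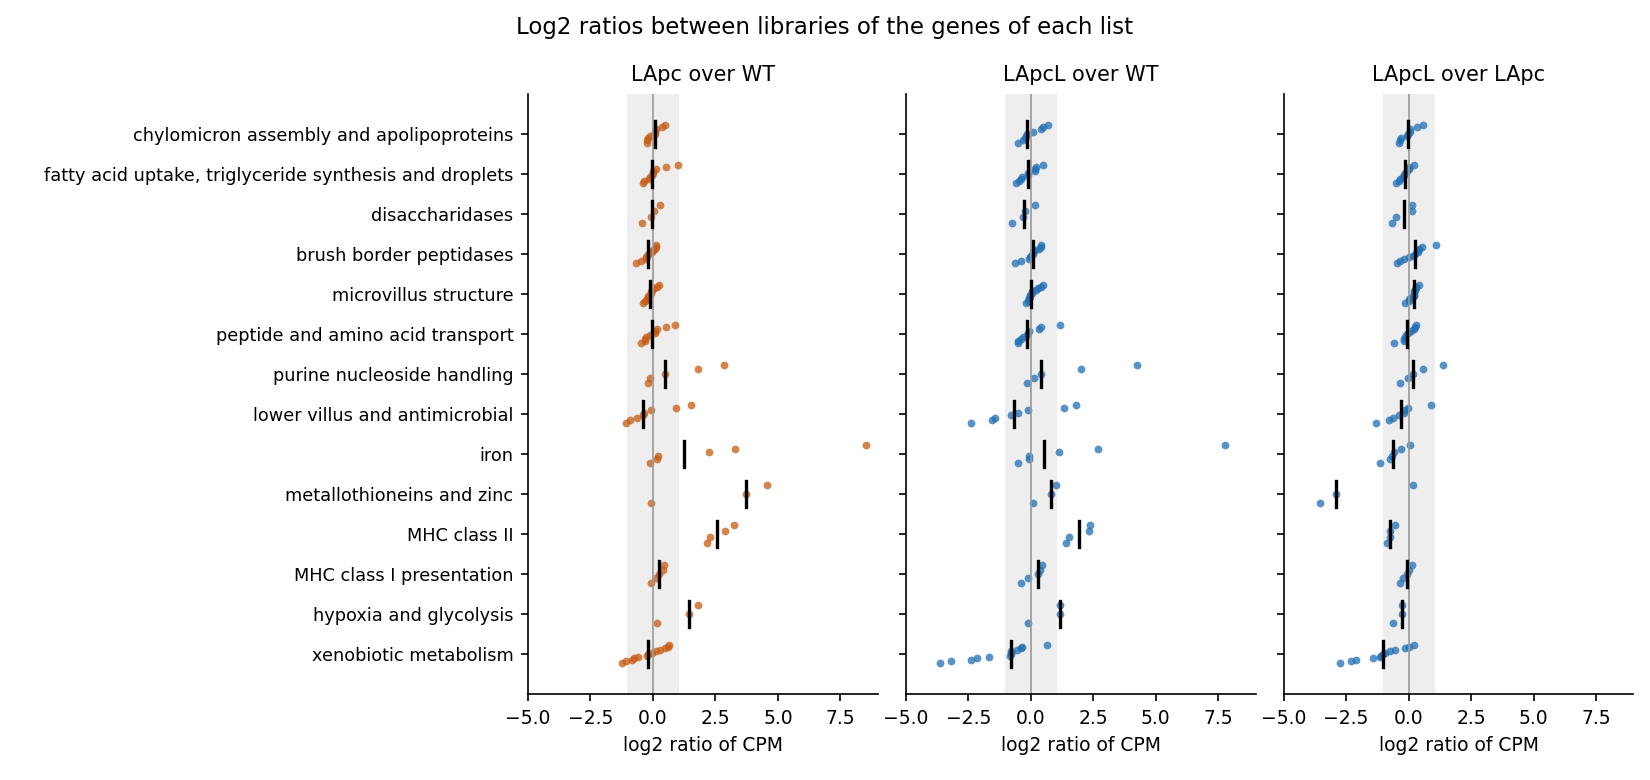
Log2 ratio of CPM between libraries for each gene at 50 CPM or more of 14 gene lists (points), with the list median (black bar) and the range under 2-fold shaded. Lipid, digestion and microvillus genes sit within the shading, apart from 1 peptidase between *LApcL* and *LApc*, whereas the 4 MHC class II genes lie above it in both comparisons with WT.

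Genes of the lower villus and of antimicrobial defense did not all move in 1 direction, and most were lower in the mutant libraries than in WT. *Reg3b* stood at 6531 CPM in WT, 18590 in *LApc* and 16223 in *LApcL*, and *Reg3g*, another bactericidal lectin, at 2350, 4436 and 8270 CPM. By contrast, *Reg1* stood at 5856, 3096 and 2017 CPM, *Reg3a* at 883, 423 and 170 CPM and the cytokine *Il18* at 270, 174 and 101 CPM. The first pair was thus highest in a mutant library and the last 3 were highest in WT. Of 8 listed genes, 1 was 2-fold higher and 1 lower in *LApc* than in WT, beside 2.31% and 1.53% of all genes. In *LApcL*, 2 were higher and 3 lower than in WT, beside 3.18% and 3.63%. The list medians were -0.40 for *LApc* over WT and -0.67 for *LApcL* over WT. In each of these comparisons the interval lay below 0 for 6 genes and above 0 for 2. *Sprr2a3*, a small proline-rich protein induced in damaged epithelium, stood at 12.1, 591 and 560 CPM. It is one of a cluster of near-identical copies, so that counts between copies are uncertain.

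Enzymes of xenobiotic metabolism, which detoxify compounds from food, were lowest in *LApcL*. *Gsta1* (chr9:78230656-78242684, plus strand), a glutathione transferase, stood at 2744 CPM in WT, 1287 in *LApc* and 302 in *LApcL*, a log2 ratio of -3.18 for *LApcL* over WT (-3.30 to -3.07). *Gstm3* stood at 547, 303 and 44.7 CPM, and *Gstm1* at 266, 292 and 59.3 CPM. The cytochromes P450 *Cyp2b10* and *Cyp2c65* stood at 429, 180 and 81.4 CPM and at 277, 164 and 86.1 CPM. Of 13 genes at 50 CPM (15 on the list), 2 were 2-fold lower in *LApc* than in WT, 5 in *LApcL* than in WT and 7 in *LApcL* than in *LApc*, and none was higher. Over all 2422 genes, 1.53%, 3.63% and 2.19% were 2-fold lower in these comparisons. The list medians were -0.22, -0.81 and -1.02. Not all members followed, since *Cyp3a13* stood at 553, 858 and 878 CPM. These gene families hold close copies, between which reads may be split. *Gsta1* was found in 90.8%, 71.9% and 30.8% of thinned cells.

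Beyond the lists, *Gsta4* stood at 371 CPM in WT, 169 in *LApc* and 41.4 in *LApcL*, and *Cyp2c66* at 96.9, 54.6 and 6.12 CPM. *Gsta4* in *LApcL* was below its level in goblet cells, 103 CPM. The thyroid hormone deiodinase *Dio1* stood at 103, 26.7 and 48.0 CPM. In the other direction, the phosphate transporter *Slc34a2* stood at 60.6, 36.9 and 144 CPM and *Plb1*, a brush border phospholipase, at 52.3, 25.6 and 96.5 CPM, both highest in *LApcL* and lowest in *LApc*.

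Nutrient transporters differed singly. The fructose transporter *Slc2a5* stood at 81.9, 172 and 78.1 CPM and was 2-fold higher in *LApc* than in either other library. The glucose transporters *Slc5a1* and *Slc2a2* stood at 1239, 1302 and 983 CPM and at 304, 300 and 155 CPM. Of 10 peptide and amino acid transporters, *Slc6a19*, the main importer of neutral amino acids, was 2-fold higher in *LApcL* than in WT, at 250, 457 and 562 CPM. Of 5 genes of fructose metabolism and gluconeogenesis at 50 CPM, *Pck1* was higher in both mutant libraries, at 129, 278 and 411 CPM, and *Fbp1* was lower in *LApcL*, at 85.7, 55.7 and 34.4 CPM. Beside these, 2.31% of all genes were 2-fold higher in *LApc* than in WT. In *LApcL*, 3.18% were higher than in WT and 3.63% lower. The calcium carrier *S100g* stood at 1664, 762 and 1339 CPM and was 2-fold lower in *LApc* than in WT. Its log2 ratio went from -1.13 to -0.18 in cells with *Apoa4* plus *Apoc3* at 1% or more, to -0.60 with equal weight for the 3 ranges under 4% and to -2.26 in cells without a *Cybrd1* UMI.

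Some genes of the villus tip and of purine handling were higher in the mutant libraries. *Ada* (chr2:163726584-163750239, minus strand) had log2 ratios of 2.86 for *LApc* over WT and 4.25 for *LApcL* over WT. The ectonucleotidase *Enpp3* stood at 24.6, 87 and 99.3 CPM, and the transcription factor *Klf4* at 101, 236 and 286 CPM. *Klf4* was at or below its level in goblet cells, 242 to 340 CPM, as was *Enpp3* in WT, at 24.3 CPM there, whereas the Apoa4-low enterocytes of the same libraries held less of both, with *Klf4* at 40.5, 47.7 and 40.6 CPM and *Enpp3* at 5.00, 6.26 and 2.94 CPM. Of 5 purine genes at 50 CPM (8 on the list), 2 were 2-fold higher in each mutant library, with list medians of 0.49 and 0.40. Of 3 villus tip genes at 50 CPM (6 on the list) the 2 named here, *Ada* and *Klf4*, were. Among all genes, 2.31% were 2-fold higher in *LApc* than in WT and 3.18% in *LApcL*. The nucleoside transporter *Slc28a2* was below 50 CPM in the mean, at 13.4, 54.9 and 55.1 CPM. *Creb3l3*, a regulator of triglyceride metabolism, stood at 451, 636 and 601 CPM.

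*Ada* also varied along the *Apoa4* plus *Apoc3* share, and more cells of the mutant libraries had a high share. Its level in *LApcL* stood at 88.5 CPM in cells at 0.5 to 1%, 467 at 1 to 2%, 1376 at 2 to 4% and 10142 at 4% or more. In *LApc* it stood at 127, 169, 207 and 2197 CPM, and in WT at 50.4, 39.7 and 97.9 CPM up to 4%. With equal weight for the 3 ranges under 4%, the log2 ratio of *Ada* for *LApc* over WT was 1.42 and for *LApcL* over WT 3.36, and that of *Enpp3* was 0.52 and 1.23. The top range of *LApcL* rests on 18 cells.

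Other genes changed along the share in all 3 libraries. *Enpp3* stood at 7.20 CPM at 0.5 to 1% and 91.3 at 2 to 4% in WT, at 22.3 and 101 in *LApc* and at 17.2 and 173 in *LApcL*. Selenoprotein P (*Sepp1*), which carries selenium to other tissues, stood at 1095 and 4971 CPM in WT, 1100 and 3851 in *LApc* and 2314 and 6627 in *LApcL*. *Pycard*, the adaptor of inflammasomes, went the other way, with 747 and 169, 569 and 170, and 518 and 147 CPM. Of the 2422 genes, 24 were 2-fold higher at 2 to 4% than at 0.5 to 1% in all 3 libraries and 95 were 2-fold lower.

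The genes that set the mutant libraries apart from WT had different courses. *Cybrd1* in *LApc* stood at 98.6, 404, 562 and 212 CPM over the 4 ranges, and in *LApcL* at 54.1, 309, 260 and 121 CPM, lowest in the bottom range and not highest in the top one. *Mt1* in *LApc* followed a like course with 3216, 5551, 6604 and 2285 CPM. *Reg3b* was highest in the bottom range, with 25267, 20720, 12565 and 8746 CPM in *LApc* and 25747, 14228, 7976 and 6689 CPM in *LApcL*, and showed no such course in WT, with 7229, 5716 and 6332 CPM up to 4%. *Gsta1* in WT stood at 3347 CPM in the bottom range and 1207 at 2 to 4%, and in *LApcL* at 292 and 287 CPM. The ranges were cut on genes of the rule, so these courses are a description.

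**Figure D5:**
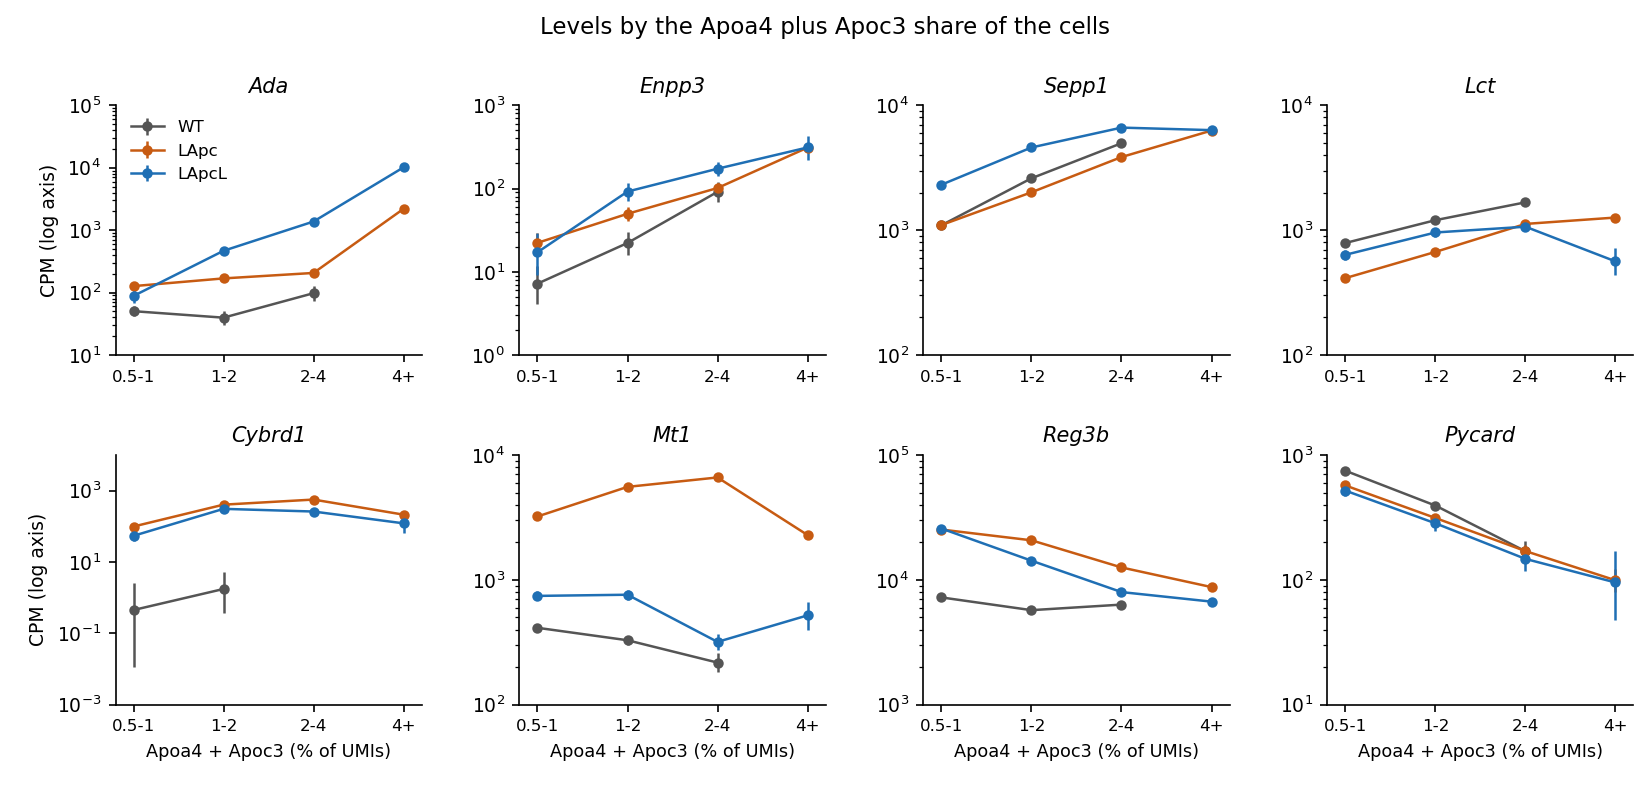
Levels of 8 genes, in CPM on a log axis, in 4 ranges of the Apoa4 plus Apoc3 share of the cells, by library, with 95% exact Poisson intervals. The WT point at 4% or more is left out since it rests on 2 cells, and *Cybrd1* in WT at 2 to 4% is 0 and cannot be drawn. *Ada* in *LApcL* goes from 88.5 to 10142 CPM, *Pycard* is lower in each higher range, and *Reg3b* is lower in each higher range in the mutant libraries only.

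RNA of other cell types was present in the Apoa4-high enterocytes and differed between libraries. The goblet cell markers other than *Tff3*, 6 genes, summed to 4514, 4096 and 3965 CPM (WT, *LApc*, *LApcL*). The Paneth cell markers other than *Defa24*, also 6 genes, summed to 2283, 815 and 803 CPM. *Tff3* and *Defa24* were part of the rule and are not in these sums. The 6 enteroendocrine markers summed to 1138, 1647 and 335 CPM. The 8 adenoma markers summed to 2.86, 31.6 and 137 CPM, below the 13.8, 42.2 and 189 CPM in goblet cells. Some of the largest ratios were of genes known from other cell types. The Paneth cell defensin *Defa20* stood at 1002, 126 and 178 CPM, with 1289 CPM in goblet cells of WT. *Sst*, a hormone of endocrine cells, stood at 419, 12.1 and 5.18 CPM. Its WT level was above the 143 CPM of goblet cells and the 289 CPM over all kept barcodes of WT, and its source was not tested. The ghrelin gene *Ghrl* stood at 77.1, 301 and 8.47 CPM, and without likely doublets its log2 ratio of *LApc* over WT turned from 1.96 to -1.35.

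Interferon-induced transmembrane genes were among the 8 genes with the highest ratios of *LApcL* over WT. *Ifitm3* stood at 19.6, 98.9 and 393 CPM and *Ifitm1* at 0, 39.6 and 182 CPM, at least 276-fold higher in *LApcL* than the limit of 3 UMIs per library that a count of 0 allows in WT. Both were at or below their levels in goblet cells of *LApcL*, 526 and 201 CPM, and below 2060 and 910 CPM over all kept barcodes. *S100a6*, at 66.8, 283 and 902 CPM, was likewise below its goblet cell levels of 1505, 2335 and 2254 CPM. Whether the enterocytes made these transcripts cannot be told from these levels, and the part of free RNA was not tested. *Cybrd1*, *Ada*, *Cd74* and *H2-Aa* in *LApc* and *LApcL* stood at a higher CPM than in goblet cells and than over all kept barcodes. *Mt1* did so in *LApc*, whereas in *LApcL* it stood at 621 CPM against 352 in goblet cells and 805 over all kept barcodes.

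Beside the Apoa4-low enterocytes of the same library, chosen by the same rule with *Apoa4* plus *Apoc3* under 0.5%, the Apoa4-high cells differed widely, as the rule used this contrast. In all 3 libraries 165 of 2422 genes were 2-fold higher and 116 lower. The endocytic receptor *Cubn* stood at 215 against 18.8 CPM in WT, 89.3 against 2.85 in *LApc* and 209 against 16.1 in *LApcL*. *Cyp3a11* stood at 582 against 59.98, 888 against 62.6 and 332 against 14.7 CPM, and *Pycard* at 535 against 1545, 329 against 1375 and 320 against 1478 CPM. *Cybrd1* in *LApc* stood at 325 CPM in Apoa4-high, 9.39 in Apoa4-low and 7.72 in Fabp6-high enterocytes, and in *LApcL* at 194, 37.3 and 6.12 CPM. *Mt1* in *LApc* was at 4680, 1969 and 1292 CPM but in *LApcL* at 621, 649 and 755 CPM and in WT at 354, 563 and 713 CPM, so it was not highest in the Apoa4-high cells of these libraries. *Ada* in *LApcL* stood at 1106, 30.2 and 57.8 CPM.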

How the data were processed

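Libraries were made by the authors with a droplet kit that reads the 3′ end of transcripts (version 2 or 3, not stated for each) and quantified with Cell Ranger 2.1.1 on the mm10 reference 1.2.0, which counts only reads placed in 1 gene. The deposited values were raw UMI counts for 27998 genes and each barcode, 1 library per genotype. The authors' cell annotation was not used here, so cells were chosen by the limits given above. The cells and gene lists were chosen with earlier results of these data known.

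UMIs were summed over cells and scaled to an equal total per library (CPM). Exact Poisson, conditional binomial and Clopper-Pearson intervals (95%) were computed with Python 3.11.15, numpy 2.4.6, scipy 1.17.1 and pandas 2.3.3. Genes were named from the lists or as the 8 highest and 8 lowest ratios of a comparison, with ribosomal, mitochondrial and sex-linked genes and those of the rule left out. List genes under 50 CPM and further examples from the lists were picked after their values were seen. Genes along the *Apoa4* plus *Apoc3* share were ranked from 0.5 to 1% against 2 to 4%, since WT had 2 cells above. Doublets were kept and removed in an alternative (Scrublet in scanpy 1.11.5), and TMM used edgeR 4.0.16. The calculations were tested on simulated counts.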

Additional observations from a re-analysis of the deposited data

How the results depend on the processing

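No paired analysis was possible because each genotype had 1 library, and for the same reason no replicate could be left out. The share of Apoa4-high enterocytes was highest in *LApc* and lowest in *LApcL* under every limit tried. In the order WT, *LApc* and *LApcL*, it was 5.86%, 15.2% and 2.11% with *Apoa4* plus *Apoc3* at 0.25% or more, 2.50%, 9.06% and 1.22% at 1% or more, and 2.96%, 5.96% and 1.04% with at most 10% mitochondrial UMIs. Among Fabp1-high barcodes alone it was 48.8%, 56.7% and 37.3%. In *LApc* and *LApcL* it was 13.8% and 2.07% with *Fabp1* at 0.2% or more, 10.6% and 1.18% at 0.8% or more, and 6.44% and 1.26% with 6000 UMIs or more. Numbers of genes 2-fold apart, for *LApc* over WT, *LApcL* over WT and *LApcL* over *LApc*, were 302, 496 and 294 at 10 CPM or more, and 1330, 2051 and 1503 for all genes with a UMI, as more genes were counted. Under the other settings they stayed within 1.5 times.

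Of 159 ratios of named genes past 2-fold, 109 were past it in the same direction under every setting tried and 153 kept their direction. Ratios that reversed were those of *Ghrl* for *LApc* over WT, with log2 -0.68 at the limit of 1% and -1.35 without the highest Scrublet scores, and, with equal weight in the 4 ranges of the share, *Fos* for *LApc* over WT (-0.19) and *Slc34a2* for *LApcL* over WT (-0.27). *Slc40a1* for *LApcL* over WT was -0.66 in cells without a *Cybrd1* UMI. The cause was not tested for these, other than that WT has 2 cells in the top range. Over the settings, *Slc11a2* ranged from 2.45 to 3.75 for *LApc* over WT, *Cd74* from 1.96 to 3.18, *Mt1* from 3.07 to 4.16 and *Ada* from 0.56 to 3.07, and *Gsta1* for *LApcL* over WT from -3.46 to -2.58. The settings of 6000 UMIs or more, the 3 ranges under 4%, the removal of shared barcodes and of cells with a *Cybrd1* UMI were added after seeing the data. Depth limits WT transcripts under 0.659 CPM and *LApcL* transcripts under 1.41 CPM.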

Other observations

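Barcodes with more than 20% mitochondrial UMIs, left out above, held many that met the rest of the rule: 31 of 62 in WT (50%), 715 of 2088 in *LApc* (34.2%) and 32 of 410 in *LApcL* (7.80%). They made up 5.74%, 34.7% and 9.91% of all barcodes meeting the rest of the rule. In those of *LApc*, *Cybrd1* stood at 712 CPM and *Mt1* at 2646 CPM.

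Transcripts of the circadian clock were below 50 CPM in the mean and differed between libraries. The clock output gene *Dbp* stood at 17.6 CPM in WT, 85.2 in *LApc* and 18.4 in *LApcL*, *Nr1d1*, a repressor of the loop, at 9.89, 58.4 and 24 CPM, and *Arntl*, its activator, at 12.1, 2.77 and 10.8 CPM. The glucocorticoid target *Fkbp5* stood at 2.64, 40.1 and 23.5 CPM and the heat shock gene *Hspa1a* at 30.5, 0.146 and 0.471 CPM. The hour at which each mouse was taken is not given in the sources used here.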
